A study of Mus musculus with 12 samples.

Results

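The comparison described here set a mouse pro-erythroblast line carrying the Plcg1 hairpin sh133 against a line carrying a scrambled hairpin. Its members were the 4 arrays whose shRNA identifier was sh133 and the 4 whose identifier was scr, 8 of the 12 arrays of the series. The other 4 arrays belonged to a second Plcg1 hairpin line, sh14. Both lines were I/11 cells, expanding erythroid progenitors that were derived from fetal liver lacking p53. The sh133 line had been stably infected with lentivirus made from the pLKO vector, which confers puromycin resistance and here encoded hairpin sh133 against Plcg1, and it was sampled at 1, 6, 12 and 22 h. The scr line carried the scrambled hairpin in the same system and was sampled at the same 4 times. Both were described as kept in serum-free medium with erythropoietin, stem cell factor and dexamethasone, and the labels did not say from which event the hours ran. The labels also did not say whether a line was a pool of infected cells or 1 clone, nor whether the 4 times came from separate cultures. The p-values below therefore measure only the spread between these arrays, which may be technical.

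Phospholipase C gamma enzymes are recruited by activated receptors and adaptor proteins, and they cleave a membrane phosphoinositide into diacylglycerol and inositol trisphosphate. Diacylglycerol activates protein kinase C, and inositol trisphosphate opens calcium channels of the endoplasmic reticulum, which in turn feeds calcineurin and the NFAT transcription factors. In erythroid progenitors the erythropoietin receptor signals through the kinase JAK2 and the transcription factor STAT5, and the title of the study placed PLCγ1 downstream of that receptor and kinase. The comparison asked which transcripts differed between a line with a hairpin against PLCγ1 and a control line at matched times.

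Each array gave log2 signals after RMA, a procedure that subtracts background, gives all arrays the same distribution and combines each probe set into 1 value, so a difference of 1 is a 2-fold change. Array medians ran from 1.88 to 1.92 in sh133 and from 1.84 to 1.90 in scr, and a log2 signal under 2 is called near background below. The gap between the 3′ and 5′ probe sets of the actin control, a sign of RNA quality, ran from 0.34 to 0.53 log2 units in sh133 and from 0.55 to 0.62 in scr, and its part in the results was not tested. The titles of the arrays carried 2 dates, whose meaning the labels did not state. All scr arrays and the sh133 arrays of 1 and 22 h shared a date, whereas the sh133 arrays of 6 and 12 h carried the other. Over the 8 arrays, the first principal component held 38.2% of the variance and ordered the arrays of each line by time. The second held 30.7% and separated the lines, with scores of 12.9 to 19.1 in sh133 and of -20.2 to -5.27 in scr. Of 8 erythroid markers measured, 7 were above background in both lines, among them Gata1, Klf1, Epor, Tfrc and Slc4a1, while the probe set of the alpha globin gene Hba-a1 averaged 1.02 in sh133 and 0.90 in scr. Above background stood 2 of 7 mast cell markers in sh133 and 1 of 7 in scr, 3 of 5 megakaryocyte markers in each line, 3 of 7 macrophage and neutrophil markers in each line and 1 of 6 lymphocyte markers in each line. In such bulk RNA, fewer cells of a type and less RNA per cell cannot be told apart.

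Plcg1, the target of the hairpin, did not differ between the lines past the threshold. Its log2 signal was 4.53, 4.35, 4.37 and 4.39 at 1, 6, 12 and 22 h on the arrays labelled sh133, against 4.74, 4.45, 4.61 and 4.31 on the scr arrays. The groups overlapped, and the mean log2 difference was -0.12 ± 0.08 (SE, 4 pairs), with a 95% interval of -0.31 to 0.07 and an adjusted p of 0.422. Within the same-date pairs the difference averaged -0.07. The remaining probe sets of the gene were near background in both lines. The names sh133 and scr therefore denote the hairpin on the label, not a measured level of Plcg1 mRNA, and every direction below is one between lines so labelled. Plcg2, the sister enzyme best known from B cells and other blood cells, read 6.07, 5.45, 5.55 and 5.56 in sh133, against 4.98, 4.64, 4.58 and 4.58 in scr. Every sh133 array lay above every scr array. The signal was 1.95-fold higher in sh133 (log2 difference 0.96 ± 0.08, adjusted p = 0.000337), with same-date differences of 1.09 at 1 h and 0.98 at 22 h.

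**Figure D1:**
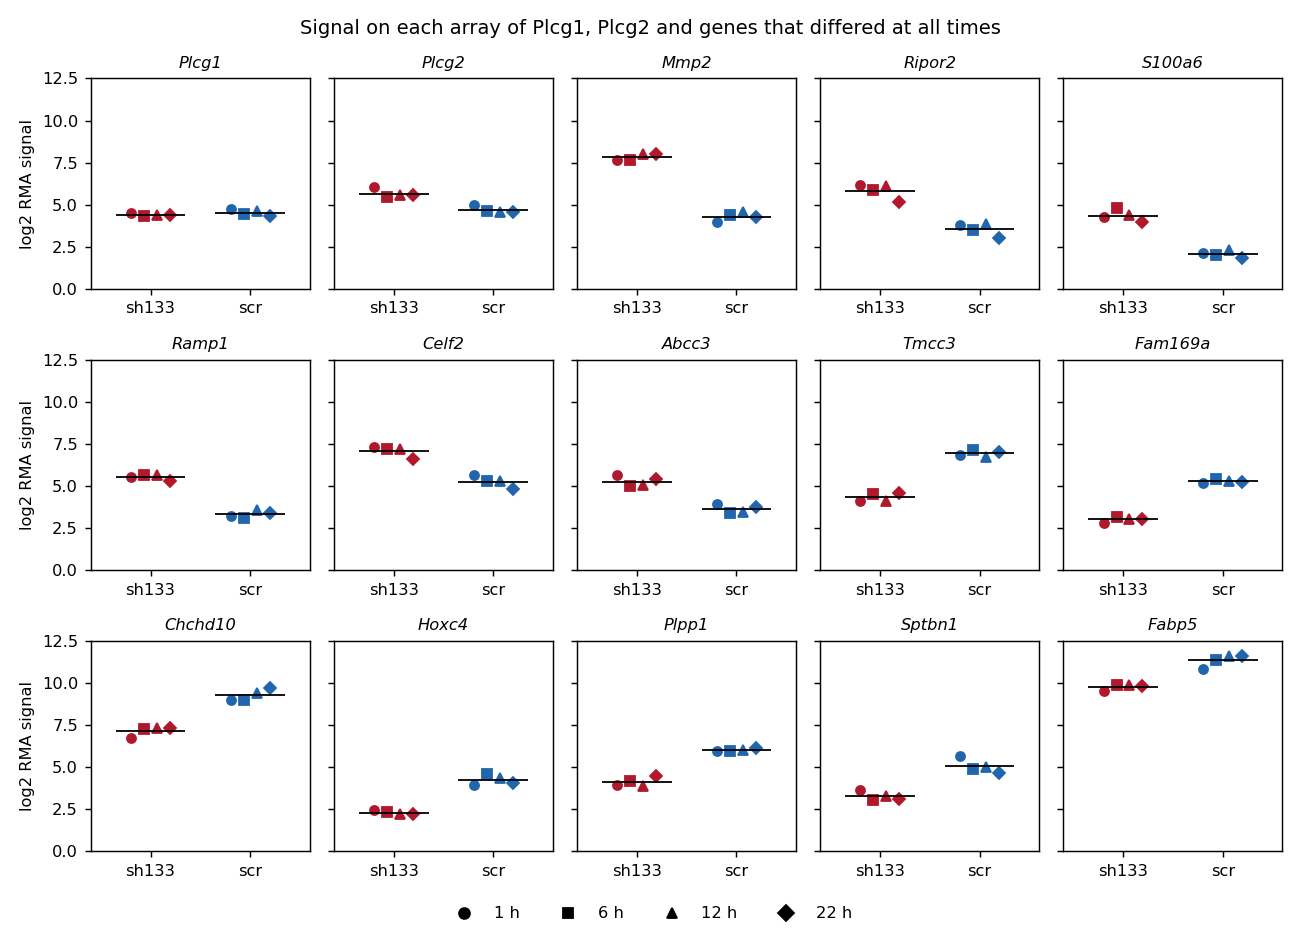
Log2 RMA signal (vertical axis) of Plcg1, Plcg2 and 13 other genes on each of the 4 sh133 arrays (red, left) and 4 scr arrays (blue, right), with marker shapes for 1, 6, 12 and 22 h and a line at the mean. The lines overlap for Plcg1, and for the other genes no array of sh133 reaches the range of scr.

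Across the 12673 genes tested, 834 were higher in sh133 (6.58% of genes tested) and 856 were lower (6.75%), 13.3% in all, by limma's moderated test with time as a factor and Benjamini-Hochberg adjustment at 0.05. The median change was 0.48 among the higher genes and -0.51 among the lower genes, against 0.02 over all genes tested. At least 2-fold differences were seen for 69 of the higher and 74 of the lower genes. The sign was the same in all 4 pairs for 818 of the 834 higher and 845 of the 856 lower genes, and both same-date pairs had that sign for 819 and 845 of them. All 4 values of sh133 lay above all 4 of scr for 497 of the higher genes, against 6.3% of all genes tested. They lay below them for 479 of the lower genes, against 5.07% of all genes tested. As the calls were made on these same values, such counts are a description. With the title date as a term in the fit, 370 genes passed (2.92%), 179 higher (1.41%) and 191 lower (1.51%), and 360 of them were called in the same direction without it (2.84%), 172 higher (1.36%) and 188 lower (1.48%). The count changed with the pairs used: without the 6 h pair 760 genes passed, without the 12 h pair 771, without the 22 h pair 1056 and without the 1 h pair 2071. Of the calls, 307 higher and 330 lower ones stood in every one of these 4 omissions, and 159 and 174 of those also stood with the date term. In the fit with the date term, the difference between the lines equals the mean of the 1 and 22 h pairs. The 6 and 12 h pairs add only to its estimate of spread. Whether a call was lost there through the date or through the fewer pairs was not tested. A gene given with its adjusted p may lose its call in that limma fit. Its adjusted p there is then given as the date-term adjusted p. For each list the text says which calls stood with the date term. For 49 of the higher and 25 of the lower calls the lower line alone was near background, so that the size of the difference may be understated.

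The term that sets the different-date pairs of 6 and 12 h against the same-date pairs of 1 and 22 h reached the limma threshold for 0 of 12673 genes, while 696 had an unadjusted p under 0.05, and date and time cannot be told apart in it. Counted at each time, genes at least 2-fold higher and lower in sh133 numbered 73 and 99 at 1 h, 112 and 108 at 6 h, 97 and 96 at 12 h, and 142 and 85 at 22 h. Each of these differences rests on 1 array per line and has no test.

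The genes that led in both directions were named by size of change among called genes of 1 sign in all pairs, 15 each way. All 30 had non-overlapping groups (11.4% of all genes tested did). The call stood in all 4 omissions for 28 of them and with the date term for 23. The genes were chosen for large differences on these same arrays, so these counts only describe the chosen genes. Afp and Cxcl3 are among the 30, although each was tested only through brighter arrays, as given below. The largest rise was that of Mmp2, a secreted protease that cleaves collagens and other matrix proteins. Mmp2 read 7.63, 7.67, 8.03 and 8.00 in sh133, against 3.95, 4.41, 4.54 and 4.25 in scr. This was an 11.7-fold higher signal in sh133 (log2 difference 3.54 ± 0.10, adjusted p = 2.43e-06), and the same-date difference averaged 3.71. A second Mmp2 probe set differed by 3.59.

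Further genes were higher in sh133 at every time. Ripor2, an inhibitor of the small GTPase RhoA, read 6.18, 5.88, 6.12 and 5.18 in sh133, against 3.80, 3.52, 3.87 and 3.04 in scr (4.86-fold, adjusted p = 4.42e-06). The calcium-binding protein gene S100a6 read 4.25, 4.81, 4.38 and 3.95 in sh133, against 2.11, 2.03, 2.30 and 1.85 in scr (4.84-fold, adjusted p = 4.84e-05). For Ramp1, whose product pairs with the calcitonin-like receptor, the signals were 5.52, 5.67, 5.64 and 5.32 in sh133, against 3.22, 3.10, 3.55 and 3.40 in scr (4.66-fold, adjusted p = 4.00e-05). All of these kept the lines apart on all arrays, and their same-date differences averaged 2.26, 2.12 and 2.11. Celf2, a regulator of RNA splicing, and Hcls1, a cortactin-like actin regulator of blood cells, were 3.52-fold and 3.32-fold higher in sh133 (adjusted p = 2.09e-05 and 0.000115). Abcc3, an efflux transporter of organic anions, was 3.09-fold higher (adjusted p = 2.85e-05), and Bex1 was 3.34-fold higher (adjusted p = 0.000229). Rhoh, a GTPase gene of blood cells, Ctsf, a lysosomal protease gene, and Afp, the fetal serum protein gene, were near background in scr. Their scr means were 1.99, 1.96 and 0.93, so the fold of each may be understated. In sh133 they averaged 2.06, 1.82 and 1.76 log2 units more. The scr mean of Afp was below the filter on mean signal, so Afp was tested only through brighter arrays. The Afp difference is therefore given as a description. The other Afp probe sets were near background in both lines and differed by 0.62, 0.77, 0.20 and -0.075. Lxn, a carboxypeptidase inhibitor gene, was 3.42-fold higher (adjusted p = 0.00172, date-term adjusted p = 0.0558), with signals of 4.43, 4.31, 3.75 and 2.61 in sh133, against 2.27, 2.11, 1.79 and 1.84 in scr.

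Among the genes lower in sh133, Tmcc3, which encodes a membrane protein with coiled coils, read 4.12, 4.51, 4.12 and 4.60 in sh133, against 6.87, 7.17, 6.75 and 7.02 in scr. Its signal was 6.13-fold higher in scr (log2 difference -2.62 ± 0.08, adjusted p = 4.15e-06). Fam169a read 2.79, 3.18, 3.06 and 3.03 in sh133, against 5.19, 5.43, 5.32 and 5.24 in scr (adjusted p = 4.24e-06). Fabp5, which encodes a fatty acid binding protein, read 9.52, 9.87, 9.89 and 9.85 in sh133, against 10.82, 11.40, 11.60 and 11.62 in scr (2.98-fold higher in scr, adjusted p = 7.00e-05). The lines stayed apart at each time for these genes, and their same-date differences averaged -2.58, -2.31 and -1.54. Chchd10, a mitochondrial intermembrane space protein gene, differed by -2.12 on the log2 scale (adjusted p = 4.22e-05). Sptbn1, which encodes the beta spectrin of non-erythroid cells, read 3.65, 3.08, 3.31 and 3.09 in sh133, against 5.69, 4.89, 5.05 and 4.66 in scr (3.46-fold higher in scr, adjusted p = 4.22e-05). The homeobox gene Hoxc4 and Plpp1, a lipid phosphate phosphatase gene, differed by -1.93 and -1.91, and Gucd1 by -1.71 (adjusted p = 9.16e-05, 4.22e-05 and 4.78e-05). Ephx2, the soluble epoxide hydrolase gene, Me1, which encodes the cytosolic malic enzyme, and Mapt, which encodes the microtubule protein tau, differed by -1.93, -1.69 and -1.68. Of the other probe sets of the 30 genes, all 6 above background in a line for the higher genes and all 12 for the lower genes differed in the same direction as the brightest.

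**Figure D2:**
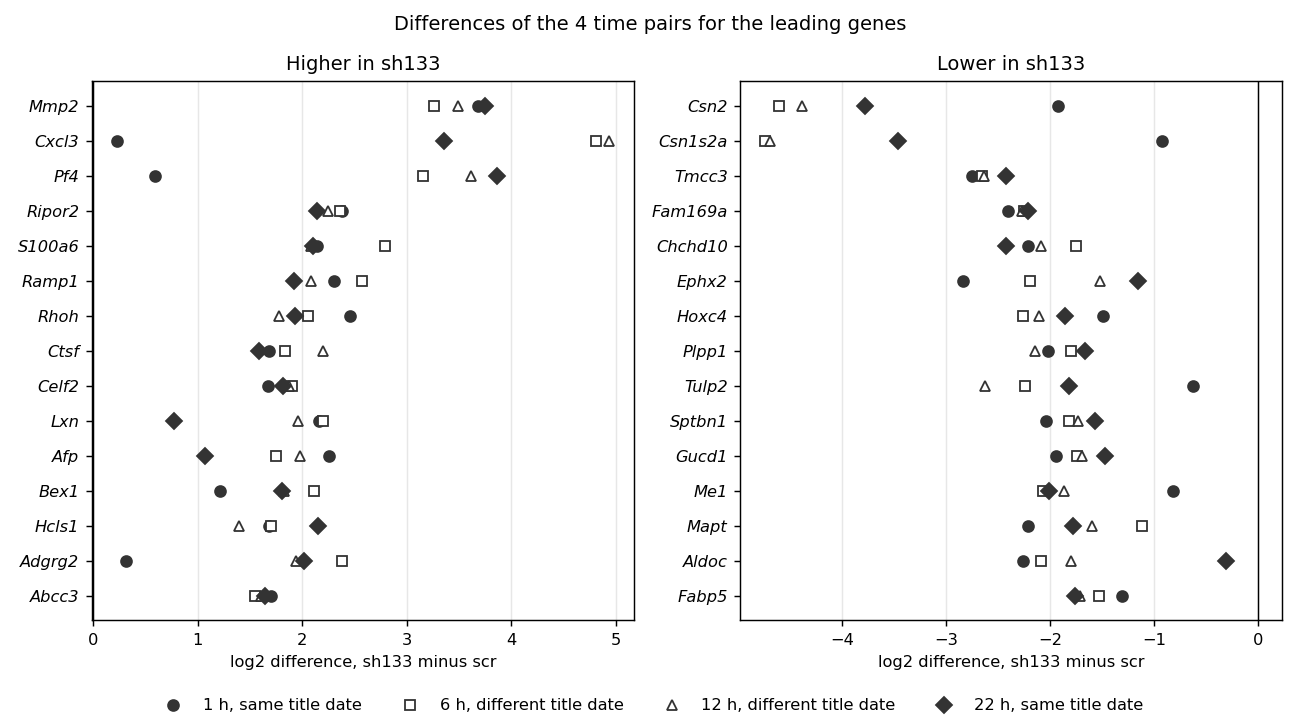
Log2 difference, sh133 minus scr (horizontal axis), in each of the 4 time pairs for the 15 leading genes higher in sh133 (left panel) and the 15 lower in sh133 (right panel), with filled symbols for pairs of the same title date and open symbols for the others. Mmp2 keeps its 4 differences close together, whereas Cxcl3, Pf4, Csn2 and Csn1s2a have their smallest difference at 1 h.

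A further set of these genes lay closer between the lines at 1 h than at the later times. The casein genes Csn2 and Csn1s2a, milk protein genes of which Csn2 is a textbook STAT5 target in the mammary gland, were the furthest below scr, and the neighbouring chemokine genes Pf4 and Cxcl3 were among the furthest above. The 250 bases before each of their transcription starts are shown because these genes had some of the largest differences from 6 h on, and all are on chromosome 5. They were taken from RefSeq on GRCm38.p6, at chr5:87699426-87699675 (minus strand) for Csn2, chr5:87774200-87774449 (plus strand) for Csn1s2a, chr5:90772185-90772434 (plus strand) for Pf4 and chr5:90785851-90786100 (plus strand) for Cxcl3. Capitals mark matches, on either strand, to TTCNNNGAA, the core of STAT5 sites.
Csn2: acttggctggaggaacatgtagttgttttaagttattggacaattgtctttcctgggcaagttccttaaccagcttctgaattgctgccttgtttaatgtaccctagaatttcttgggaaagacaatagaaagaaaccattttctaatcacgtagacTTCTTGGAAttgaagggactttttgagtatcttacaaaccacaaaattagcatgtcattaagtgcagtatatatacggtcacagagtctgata
Csn1s2a: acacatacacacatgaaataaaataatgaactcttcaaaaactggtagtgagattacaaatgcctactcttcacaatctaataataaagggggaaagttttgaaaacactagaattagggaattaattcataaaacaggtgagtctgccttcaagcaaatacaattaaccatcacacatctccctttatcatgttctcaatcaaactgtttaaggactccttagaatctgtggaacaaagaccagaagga
Pf4: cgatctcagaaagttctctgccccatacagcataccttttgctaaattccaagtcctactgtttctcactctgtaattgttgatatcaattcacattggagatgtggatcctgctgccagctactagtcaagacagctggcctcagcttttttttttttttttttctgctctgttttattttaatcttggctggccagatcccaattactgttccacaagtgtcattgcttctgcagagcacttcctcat
Cxcl3: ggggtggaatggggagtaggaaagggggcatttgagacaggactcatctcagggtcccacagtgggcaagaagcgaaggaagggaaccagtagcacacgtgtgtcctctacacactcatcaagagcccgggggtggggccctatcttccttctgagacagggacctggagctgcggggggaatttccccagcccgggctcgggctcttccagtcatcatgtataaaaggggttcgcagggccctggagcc
The Csn2 window held 1 match to TTCNNNGAA, which 7.0% of 32851 promoter windows of that length held. No match lay in the windows of Csn1s2a, Pf4 and Cxcl3.

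Csn2 read 5.88, 3.83, 3.88 and 3.37 in sh133 at 1, 6, 12 and 22 h, against 7.81, 8.45, 8.27 and 7.16 in scr. The groups did not overlap at any time, with a pair difference of -1.92 at 1 h and -3.78 at 22 h, both same-date. The signal was 12.8-fold higher in scr (log2 difference -3.68 ± 0.37, adjusted p = 0.000793). Csn1s2a read 4.60, 1.96, 1.90 and 1.64 in sh133, against 5.52, 6.71, 6.59 and 5.10 in scr, so that it was near background in sh133 from 6 h on. Its log2 difference was -3.46 ± 0.54 (adjusted p = 0.00506, date-term adjusted p = 0.0805), and its size may be understated for that reason. Tulp2, which encodes a Tubby-like protein, read 1.43, 1.56, 2.05 and 1.75 in sh133, against 2.05, 3.80, 4.67 and 3.58 in scr (adjusted p = 0.00379, date-term adjusted p = 0.0686).

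Pf4, a chemokine gene of platelets and megakaryocytes, read 5.08, 7.37, 7.35 and 7.64 in sh133, against 4.49, 4.22, 3.74 and 3.78 in scr. The pair difference was 0.59 at 1 h and 3.86 at 22 h, and the mean log2 difference was 2.81 ± 0.46 (adjusted p = 0.00602, date-term adjusted p = 0.141). Cxcl3, a chemokine gene that attracts neutrophils, read 0.85, 5.03, 5.51 and 3.88 in sh133, against 0.62, 0.22, 0.58 and 0.52 in scr. It was thus near background in scr throughout and in sh133 at 1 h. Its mean of 0.49 in scr was below the filter of 1.45, so Cxcl3 was tested only through its sh133 arrays; its mean log2 difference of 3.33 is given as a description, and its size may be understated. The call of Cxcl3 was lost with the date term and without the 6, 12 or 22 h pair. In the map order of the RefSeq table Pf4 and Cxcl3 were next to each other. Ppbp, the neighbour of Pf4 on its other side, was left out by the filter with means of 1.15 in sh133 and 0.72 in scr, and Cxcl1, nearby, differed by 0.06 (adjusted p = 0.690); these neighbours were named after their values were seen. Adgrg2, an adhesion receptor gene, read 2.05, 3.55, 3.95 and 4.01 in sh133, against 1.73, 1.18, 2.00 and 1.99 in scr (adjusted p = 0.00726, date-term adjusted p = 0.156).

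**Figure D3:**
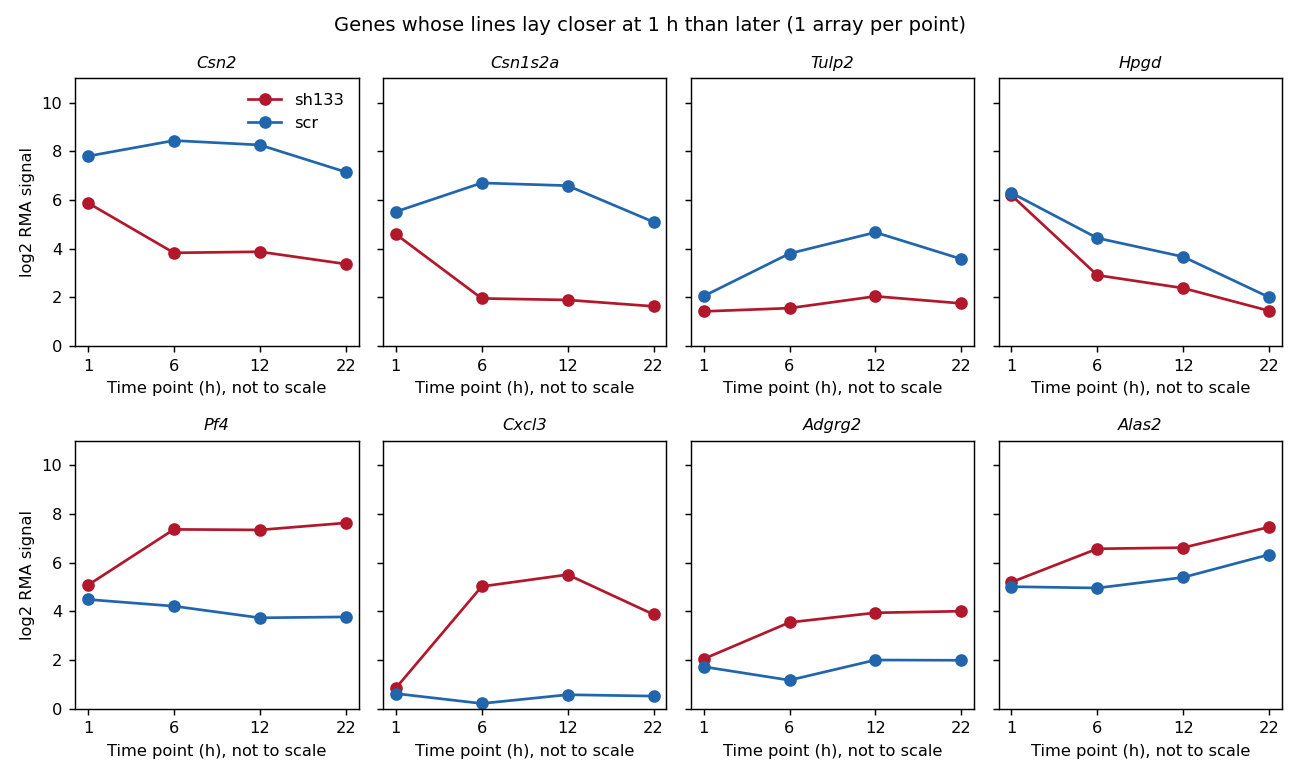
Log2 RMA signal (vertical axis) at 1, 6, 12 and 22 h (horizontal axis, evenly spaced) for 8 genes in sh133 (red) and scr (blue), 1 array per point. The lines are close at 1 h for Pf4, Cxcl3, Adgrg2, Alas2 and Hpgd, and the caseins are lower in sh133 from 1 h on.

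For each gene list below, the shares to set beside its counts are 6.58% called higher and 6.75% called lower over all genes tested. Sizes are those of the brightest probe set of each gene, and other probe sets may differ less. For the enzymes and adaptors around PLCγ, 14 genes were tested, with a list median of 0.13. Of these, 3 rose (Plcg2, Syk and Lcp2) and 2 fell (Blnk and Gab1). Blnk, an adaptor that couples SYK to PLCγ in B cells, was near background in sh133 with 1.24, 0.96, 1.30 and 1.30, against 2.58, 2.40, 2.79 and 3.02 in scr. As its mean of 1.20 in sh133 was below the filter of 1.45 and Blnk was tested through brighter arrays, the mean log2 difference of -1.50 is given as a description and may be understated. Gab1, a docking protein of growth factor receptors, fell by 0.86 on the log2 scale, and its same-date difference was -0.87 (adjusted p = 0.00150). The kinase gene Syk averaged 2.08 in sh133 and 1.28 in scr, near background. Its scr mean was below the filter of 1.45, so Syk too was tested through brighter arrays. The mean log2 difference of 0.81 is therefore given as a description, and the Syk call was lost with the date term. Of this list the calls of Plcg2 and Gab1 stood with the date term. That of Blnk also did, with the same limit from the filter. Among 16 genes of protein kinase C and diacylglycerol turnover, Prkca and Prkce rose and Marcksl1 and Prkci fell. Prkca, a classical isoform that responds to calcium and diacylglycerol, read 5.29, 5.49, 5.56 and 5.19 in sh133, against 4.40, 4.70, 4.43 and 3.73 in scr. That was 2.10-fold higher in sh133 (adjusted p = 0.000960), with a same-date difference of 1.18. Prkce, an isoform that responds to diacylglycerol without calcium, was 1.64-fold higher (adjusted p = 0.00572, date-term adjusted p = 0.114), while the calls of Marcksl1 and Prkci were lost without single pairs and with the date term, with which Prkca alone of this list stood.

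Among 23 calcium and NFAT genes, 4 rose (Nfatc1, Atp2a3, Orai2 and Camkk2) and 1 fell (Atp2b1), with a median of 0.07. Nfatc1, which encodes a calcineurin-dependent transcription factor, read 4.01, 4.17, 4.25 and 3.80 in sh133, against 3.13, 2.93, 3.32 and 2.87 in scr (1.99-fold, adjusted p = 0.000434). Atp2a3, a calcium pump gene of the endoplasmic reticulum, read 5.77, 5.71, 5.83 and 5.92 in sh133, against 5.14, 4.90, 4.84 and 4.54 in scr (1.94-fold, adjusted p = 0.00208). The plasma membrane calcium pump gene Atp2b1 read 5.71, 5.68, 5.36 and 5.37 in sh133, against 6.58, 6.39, 6.23 and 6.19 in scr (1.77-fold higher in scr, adjusted p = 0.000529). The other probe sets differed by 0.427, 0.184, 0.215 and 0.369 for Nfatc1 and by 0.203 for Atp2a3. Those of Atp2b1 differed by -0.994 and -0.892. The near 2-fold sizes of Nfatc1 and Atp2a3 thus hold for the brightest probe set only. On that probe set, none of these 3 genes had overlapping groups, and each kept its call with the date term and in all 4 omissions. Orai2, a store-operated channel gene, was 1.38-fold higher (adjusted p = 0.0127, date-term adjusted p = 0.154), and its call was lost without the 6, 12 or 22 h pair. A second Orai2 probe set differed by -0.074. No other call of this list stood with the date term.

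Of 23 genes of the EPO receptor, JAK2 and STAT5 list, which covers the core of erythropoietin signalling, 2 rose and 2 fell, with a median of -0.07. The log2 differences that did not pass were -0.14 for the receptor gene Epor (adjusted p = 0.437), 0.00 for Jak2 (adjusted p = 0.985), -0.19 for Stat5a (adjusted p = 0.151) and -0.15 for Stat5b (adjusted p = 0.286). Ptpn11, which encodes the phosphatase SHP2, and Grb2, the adaptor to the RAS pathway, were 1.42-fold and 1.39-fold higher in sh133 (adjusted p = 0.00374 and 0.00772, date-term adjusted p = 0.0694 and 0.0834). Sh2b3, which encodes the JAK2 inhibitor LNK, and the exchange factor gene Sos2 fell by 0.36 and 0.35 (adjusted p = 0.0490 and 0.0375, date-term adjusted p = 0.228 and 0.193), and both calls were lost when single pairs were left out.

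Of 24 STAT5 target and feedback genes, 2 rose (Spred2 and Socs2), with a list median of -0.14. The 7 that fell were Csn2, Csn1s2a, Tnfrsf13c, Ccnd2, Socs3, Id1 and Spred1, against 6.75% called lower over all genes tested. All 4 pairs were lower in sh133 for 10 members, against 15.3% of all genes tested. Csn2 alone kept its call with the date term. Tnfrsf13c, a receptor gene of the survival factor BAFF, read 5.17, 4.71, 4.86 and 4.88 in sh133, against 5.53, 5.71, 5.79 and 5.76 in scr (adjusted p = 0.00343, date-term adjusted p = 0.0828). Ccnd2, which encodes cyclin D2, read 7.60, 7.41, 7.50 and 7.38 in sh133, against 8.01, 8.60, 8.49 and 7.67 in scr (adjusted p = 0.0156, date-term adjusted p = 0.162), and did not pass without the 6 h or the 12 h pair.

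Erythroid genes moved in both directions. Gata1, the master regulator of the lineage, differed by 0.10 (adjusted p = 0.499), and Klf1, an activator of globin and membrane genes, by -0.22 (adjusted p = 0.168). Of 20 erythroid regulators, 1 rose (Runx1) and 1 fell (Klf13); both calls were lost with the date term, and that of Klf13 (date-term adjusted p = 0.116) on omission of any pair. Of 23 genes of the red cell membrane and its skeleton, Tmod1 and Aqp1 rose and 6 fell (Sptbn1, Rhd, Icam4, Sptb, Slc2a1 and Ermap), with a median of -0.04. The list included Sptbn1 although it encodes the beta spectrin of non-erythroid cells, as given above. Tmod1, the cap of red cell actin filaments, read 5.22, 6.32, 6.43 and 6.89 in sh133, against 4.52, 5.11, 5.46 and 6.07 in scr, so that both lines were higher at later times and sh133 stood higher in each pair (1.90-fold, adjusted p = 0.000922). Rhd, the Rh blood group gene, read 6.31, 7.11, 7.60 and 8.17 in sh133, against 7.09, 7.49, 8.16 and 8.71 in scr, lower in sh133 in each pair (log2 difference -0.57 ± 0.09, adjusted p = 0.00469). The same-date differences averaged 0.76 for Tmod1 and -0.66 for Rhd, and both calls stood with the date term, as did those of Sptbn1 and Slc2a1 but no others of this list.

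Of 23 globin, heme and iron genes, Alas2 rose and 5 fell (Tfr2, Slc25a38, Blvrb, Fth1 and Slc11a2), with a median of -0.05. Alas2, the first enzyme of heme synthesis in red cells, read 5.20, 6.58, 6.62 and 7.47 in sh133, against 5.02, 4.96, 5.40 and 6.34 in scr. The groups overlapped, since the 1 h arrays of both lines were close. Its 2.05-fold difference (adjusted p = 0.0108, date-term adjusted p = 0.193) did not pass without the 6, 12 or 22 h pair. Tfr2, a second transferrin receptor, read 7.90, 7.76, 7.77 and 7.64 in sh133, against 8.19, 8.30, 8.32 and 8.21 in scr (adjusted p = 0.00693, date-term adjusted p = 0.122). None of the globin, heme and iron calls stood with the date term. Of 32 listed genes of this group 25 had a probe set with 1 gene.

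The calls among genes of immature blood progenitors were all upward. Of 18 such genes, 6 rose (Fli1, Ets1, Runx1, Gata2, Spi1 and Myb) and none fell, with 2 lower at an unadjusted p under 0.05 and a median of 0.20. Ets1, an ETS family transcription factor gene, read 5.54, 4.55, 4.06 and 3.26 in sh133, against 4.48, 4.05, 3.23 and 2.31 in scr (1.78-fold, adjusted p = 0.00181). It was lower at later times in both lines, stood higher in sh133 in each pair, and alone of this list kept its call with the date term. Fli1, an ETS factor gene of megakaryocytes and progenitors, read 5.33, 5.94, 6.04 and 5.28 in sh133, against 4.97, 5.13, 4.68 and 4.08 in scr (1.91-fold, adjusted p = 0.00599, date-term adjusted p = 0.133). Runx1 was 1.59-fold higher (adjusted p = 0.00842, date-term adjusted p = 0.151), a call lost without the 6 h pair. Myb was 1.24-fold higher (adjusted p = 0.0390, date-term adjusted p = 0.145), a call lost on omission of any pair. Kit, the stem cell factor receptor gene, read 7.67, 6.71, 6.43 and 5.96 in sh133, against 7.88, 6.97, 6.80 and 6.17 in scr, below scr in each pair without passing (adjusted p = 0.0575).

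Of 15 megakaryocyte and platelet genes, 4 rose (Pf4, Fli1, Itgb3 and Nbeal2), none fell and 1 was lower at an unadjusted p under 0.05, with a median of 0.16. None of these 4 calls stood with the date term, and those of Itgb3 and Nbeal2 were each lost on omission of any of 3 pairs, which were 6, 12 and 22 h for Itgb3 and 1, 6 and 22 h for Nbeal2. The mean over the 5 measured megakaryocyte markers ran from 3.11 to 3.90 on the sh133 arrays and from 2.69 to 3.01 on the scr arrays. Most of that gap came from Pf4, which differed by 2.81. Itga2b differed by 0.33, Gp9 by 0.16, Vwf by 0.07 and Ppbp, left out by the filter, by 0.42. Of these markers Pf4 passed, while Itga2b averaged 6.08 in sh133 and 5.76 in scr (adjusted p = 0.208), and Vwf was near background in both lines. Of 12 mast cell and basophil genes, Gata2 rose and Hdc, Ms4a2 and Cma1 fell, none of them with the date term. Hdc, the enzyme that makes histamine, read 8.88, 7.04, 6.32 and 5.10 in sh133, against 9.47, 8.69, 7.49 and 5.97 in scr (2.10-fold higher in scr, adjusted p = 0.00345, date-term adjusted p = 0.0584). Ms4a2 and Cma1 averaged under 2 in both lines. Their sh133 means of 1.28 and 1.37 were below the filter on mean signal, so both were tested only through brighter arrays. The calls of Ms4a2 and Cma1 are therefore given as a description. Of 9 macrophage and neutrophil genes, Fcgr1, a high-affinity IgG receptor gene, was 1.62-fold higher (adjusted p = 0.00150, also called with the date term), and among the 7 markers Csf1r, Lyz2 and Elane averaged 2.06 to 2.32 in sh133 and 2.03 to 2.31 in scr, while Adgre1, Itgam, Mpo and Cd68 were near background in both lines. None of 9 lymphocyte genes passed limma's threshold, adjusted or unadjusted. The part of such other cell types in any result here was not tested.

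Cell division genes showed small differences. Of 52 genes of G2-M and mitosis, 5 rose (Ndc80, Nuf2, Cenpf, Sgo1 and Incenp) and none fell, adjusted or unadjusted. These calls were 9.6% of the list, against 6.58% called higher and 13.3% called in either direction over all genes tested. The mean difference was above 0 for 45 of the 52, against 6834 of the 12673 genes tested. The list median was 0.18, against 0.02 over all genes. By time the median was 0.10 at 1 h, 0.36 at 6 h, 0.22 at 12 h and -0.02 at 22 h. Nuf2, a kinetochore gene, was 1.42-fold higher (adjusted p = 0.00752, date-term adjusted p = 0.131), and none of the 5 calls stood with the date term. Of 48 S phase genes, Prim1 rose and Pole2 and Pold3 fell, none with the date term, with a median of 0.19 at 1 h, 0.24 at 6 h, -0.19 at 12 h and -0.30 at 22 h.

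Of the 30 core and linker histone genes listed, 4 were tested, and 3 of them rose, each also with the date term and in all 4 omissions. H2aw, a histone H2A gene, read 5.72, 5.12, 4.91 and 5.13 in sh133, against 4.64, 4.11, 3.04 and 3.07 in scr (2.84-fold, adjusted p = 0.00147). H2ax, whose product marks DNA breaks when phosphorylated, read 8.05, 8.03, 8.04 and 8.10 in sh133, against 7.39, 7.47, 7.17 and 7.08 in scr (1.71-fold, adjusted p = 0.00180). H2bc22 was 1.60-fold higher, with scr near background. The lines did not overlap for any of the 3, and the same-date differences averaged 1.57, 0.84 and 0.89.

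Among 20 brakes of the cell cycle and D-type cyclin genes with their kinases, 4 rose (Btg2, Gadd45b, Cdkn2d and Cdk6) and 3 fell (Cdkn1c, Cdk4 and Ccnd2). Cdkn1c, which encodes the inhibitor p57, read 3.68, 3.04, 3.40 and 3.47 in sh133, against 4.92, 4.36, 4.26 and 4.69 in scr (2.23-fold higher in scr, adjusted p = 0.000283). Cdk4, the kinase partner of D cyclins, read 8.01, 7.95, 7.96 and 7.91 in sh133, against 8.59, 8.69, 8.95 and 8.88 in scr (1.76-fold higher in scr, adjusted p = 0.00127). Both were apart on all arrays and kept their calls with the date term, as did Gadd45b but no others of this list. Of 14 p53 target genes, Bbc3 rose and Phlda3 and Mdm2 fell, none with the date term. Of 15 BCL2 family genes, Bcl2 and Bbc3 rose and Bcl2l13 and Bcl2l11 fell. The survival gene Bcl2 read 5.25, 5.28, 5.38 and 5.24 in sh133, against 4.63, 4.71, 4.49 and 4.08 in scr (1.76-fold, adjusted p = 0.00265), and its same-date difference averaged 0.89; it alone of this family stood with the date term.

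The list of glycolysis and hypoxia genes had lower calls and no higher ones. Of 28 glycolysis and hypoxia genes, 10 fell (Aldoc, Pdk1, Aldoa, P4ha2, P4ha1, Egln1, Slc2a1, Hk2, Pfkl and Pfkm), none rose and 1 was higher at an unadjusted p under 0.05. Of the 10 calls, 3 stood with the date term and 4 in all 4 omissions of a pair. The list median was -0.22, with -0.36 at 1 h, -0.24 at 6 h, -0.30 at 12 h and -0.06 at 22 h. Pdk1, which holds pyruvate back from the mitochondria, read 6.21, 6.52, 6.50 and 6.51 in sh133, against 7.00, 7.22, 7.27 and 7.30 in scr (1.70-fold higher in scr, adjusted p = 0.000639). Aldoc, an aldolase gene, read 5.32, 4.79, 4.73 and 5.32 in sh133, against 7.59, 6.88, 6.53 and 5.62 in scr (3.06-fold higher in scr, adjusted p = 0.00743, date-term adjusted p = 0.161), and the difference was -0.31 at 22 h. The Aldoc call was lost without the 6 h pair (adjusted p = 0.0506). Pdk1, Slc2a1 and P4ha1 kept their calls with the date term.

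Of 26 sterol and fatty acid synthesis genes, 4 fell (Tm7sf2, Scd1, Dhcr7 and Pmvk) and none rose, adjusted or unadjusted. Every one of the 26 had a mean difference below 0, whereas 6834 of the 12673 genes tested were above 0. The list median was -0.22, although it was 0.16 at 1 h, -0.67 at 6 h, -0.31 at 12 h and -0.15 at 22 h. Over the same-date pairs alone it was -0.02. Tm7sf2, a sterol reductase gene, read 4.53, 3.44, 3.52 and 4.23 in sh133, against 5.37, 5.21, 5.07 and 4.96 in scr (2.33-fold higher in scr, adjusted p = 0.00307), and it alone kept its call with the date term.

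Glutathione and detoxification genes were split, with 3 higher (Gstm1, Gstt3 and Txnrd1) and 5 lower (Gstz1, Gstt2, Gstm5, Mgst3 and Gpx4) of 25. Gstt3 averaged 1.30 in scr, below the filter of 1.45, and was tested through brighter arrays, so its call is given as a description. Gstz1, an enzyme of tyrosine breakdown, read 3.58, 3.49, 3.44 and 3.48 in sh133, against 4.51, 4.78, 5.11 and 4.84 in scr (2.49-fold higher in scr, adjusted p = 0.000434). Gstt2 was 2.01-fold higher in scr (adjusted p = 0.000516), and these 2 calls alone of the list stood with the date term. Of 37 genes of ATF4 and the unfolded protein response, 4 rose and 5 fell, and only the call of Herpud1 stood with the date term. Herpud1, a gene of endoplasmic reticulum protein degradation, was 1.65-fold higher in sh133 (adjusted p = 0.00116), and the chaperone gene Hsp90b1 was 1.69-fold higher in scr (adjusted p = 0.00292, date-term adjusted p = 0.0682). Of 20 genes of lipid mediators and phospholipid remodelling, 3 rose and 3 fell, and only the call of Lpcat2 stood with the date term. Lpcat2, an enzyme gene of platelet-activating factor synthesis, read 6.37, 5.87, 5.96 and 5.88 in sh133, against 4.86, 4.74, 4.76 and 4.48 in scr (2.48-fold, adjusted p = 0.000111). Hpgd, which inactivates prostaglandins, read 6.20, 2.91, 2.38 and 1.45 in sh133, against 6.30, 4.44, 3.67 and 2.01 in scr (adjusted p = 0.0301, date-term adjusted p = 0.301), and its call was lost without the 6, 12 or 22 h pair. Of 30 ribosome biogenesis and MYC genes, Mxi1 and Mxd1, antagonists of MYC, rose and Odc1, an enzyme of polyamine synthesis, fell, none of them with the date term.

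Of 29 interferon response and antigen processing genes, 5 rose (Oas1a, Psmb8, Xaf1, Psmb9 and Tap1) and 1 fell (Trim25), with a median of 0.05. All 5 higher calls stood in every omission of a pair, and those of Oas1a, Psmb8 and Psmb9 stood with the date term, but not those of Xaf1, Tap1 and Trim25. Oas1a, which makes the activator of the antiviral nuclease RNase L, read 5.13, 5.06, 5.12 and 5.14 in sh133, against 4.22, 3.93, 3.99 and 4.17 in scr (2.06-fold, adjusted p = 0.000221). Psmb8, a subunit of the immunoproteasome, read 7.15, 6.66, 6.54 and 6.18 in sh133, against 6.25, 5.78, 5.58 and 5.09 in scr, 1.95-fold higher although the ranges overlapped across times (adjusted p = 0.000283). Of 25 chemokine and cytokine genes with their receptors, Cxcl3 and Tgfb1 rose and Il4ra fell, and no call stood with the date term or in all 4 omissions. Of 28 adhesion and matrix genes, 2 rose (Mmp2 and, without the date term only, Lgals3), none fell and 1 was lower at an unadjusted p under 0.05. Of 32 immediate early and ERK feedback genes, 4 rose (Btg2, Dusp1, Spred2 and Jund) and 1 fell (Spred1), and none of these calls stood with the date term or in all 4 omissions.

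Further calls named above were lost on omission of single pairs. This held for any pair for Blvrb, Spred1, Prkci and Sos2, and for any of the 6, 12 and 22 h pairs for Slc25a38, Sh2b3, Pole2, Pold3, Cenpf, Sgo1, Phlda3, Bbc3, Bcl2l11, Dhcr7, Pmvk and Odc1. It held for the 6 or 12 h pair for Marcksl1, Ndc80, Scd1 and Mxi1, for the 6 h pair for Mxd1, for the 12 or 22 h pair for Icam4, for the 1, 12 or 22 h pair for Gata2 and for the 1, 6 or 12 h pair for Aldoa.

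**Figure D4:**
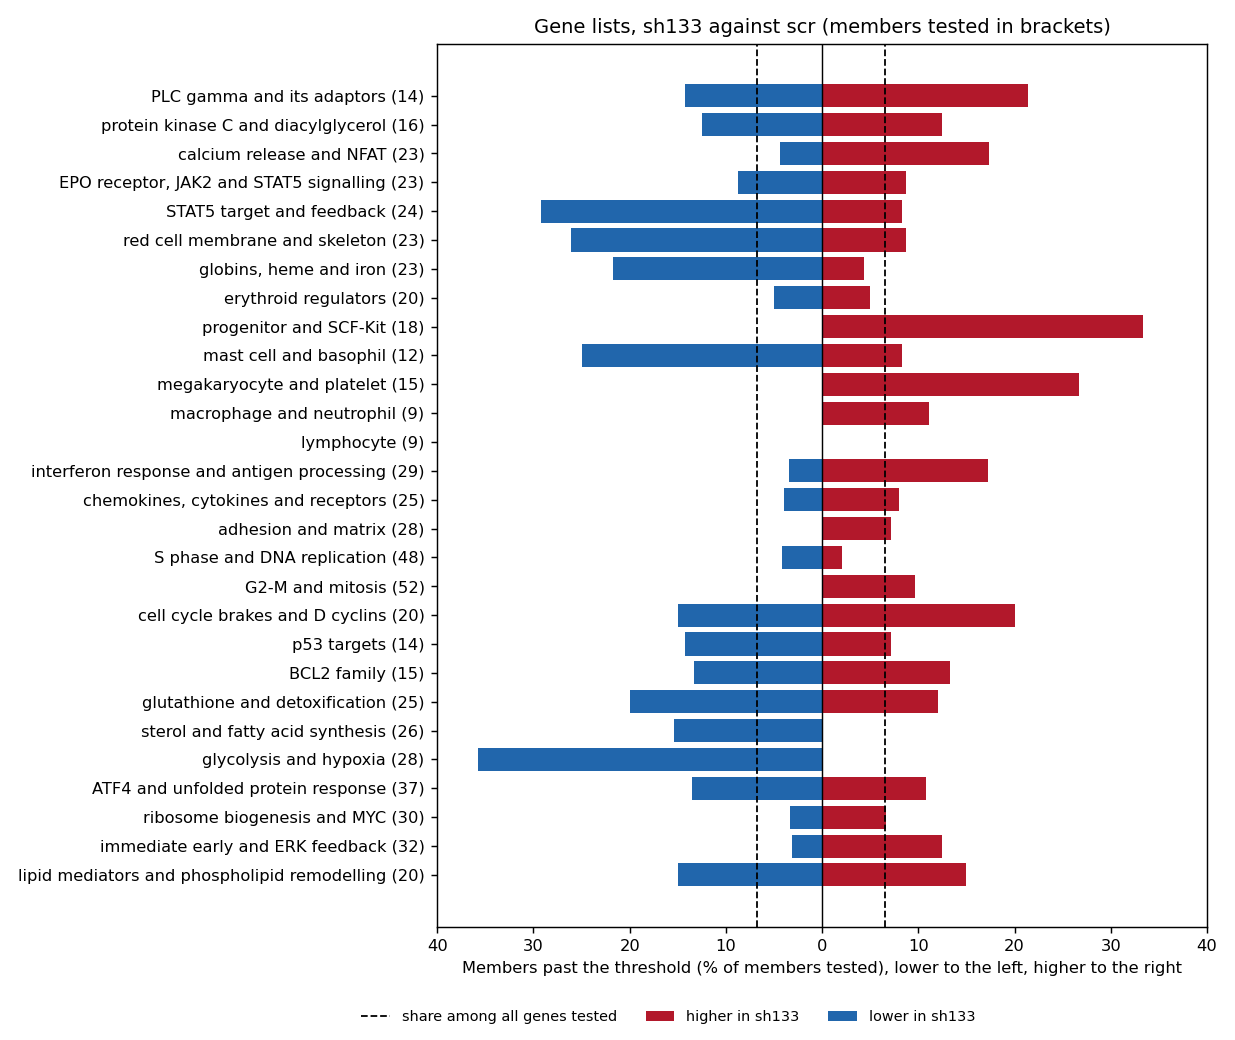
Share of tested members past the threshold (horizontal axis, percent), higher in sh133 to the right (red) and lower to the left (blue), for the 28 lists with 9 or more tested members, whose number is in brackets. Dashed lines mark the shares among all genes tested, 6.58% higher and 6.75% lower; the longest bar to the left is that of glycolysis and hypoxia, 10 of 28, and the longest to the right that of progenitor genes, 6 of 18.

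The lower calls were unevenly spread over the genome. Chromosome 12 held 3.5% of the genes tested but 20.1% of the lower calls, 172 genes, with 14 higher, and 33.5% of those lower with and without the date term. The median log2 difference over its 448 tested genes was -0.20, and -0.22 over the same-date pairs. In blocks of 50 consecutive tested genes in map order, the counts of lower calls were 2, 5, 30, 25, 24, 32, 29 and 13, with 12 among the last 48, so the middle blocks held most of them. The median difference of those 9 blocks was -0.02, -0.07, -0.46, -0.31, -0.26, -0.42, -0.53, -0.10 and -0.08. Leading genes of this chromosome, named after their values were seen, were in order Gstz1 (-1.31), Gpr65 (-1.26), Aldh6a1 (-1.17), Pygl (-1.12), Mideas (-1.08), Lgmn (-1.06) and Ppp2r3c (-1.03). The call of Gpr65 was lost with the date term (date-term adjusted p = 0.279), and its same-date difference was -0.58. The sh14 line, set against the same scr arrays, had block medians of 0.17, 0.15, 0.05, -0.16, 0.03, -0.01, 0.02, 0.00 and -0.18.

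Chromosome 10 held 4.8% of the genes tested, 12.2% of the higher calls (102 genes) and 12.6% of the lower calls (108 genes). The directions alternated along it: the fifth block of 50 genes, from Herc4 to Slc19a1, had 24 lower calls and 1 higher, the eighth had 20 higher and 0 lower, the eleventh had 26 lower and 4 higher, and the twelfth had 19 higher and 1 lower. Their medians were -0.38, 0.30, -0.33 and 0.22 in sh133 minus scr, and -0.42, 0.24, -0.34 and 0.22 in sh14 minus scr, 2 comparisons that share the scr arrays. Tmcc3, Chchd10 and Gucd1 of the leading genes lie on this chromosome, as do Cdk4, Atp2b1, Hsp90b1 and Gstt2. Without the genes of chromosomes 10 and 12, an alternative added after the data were seen, 1207 genes passed, 673 higher and 534 lower, so that 55.8% of calls were higher, against 49.3% with all genes.

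**Figure D5:**
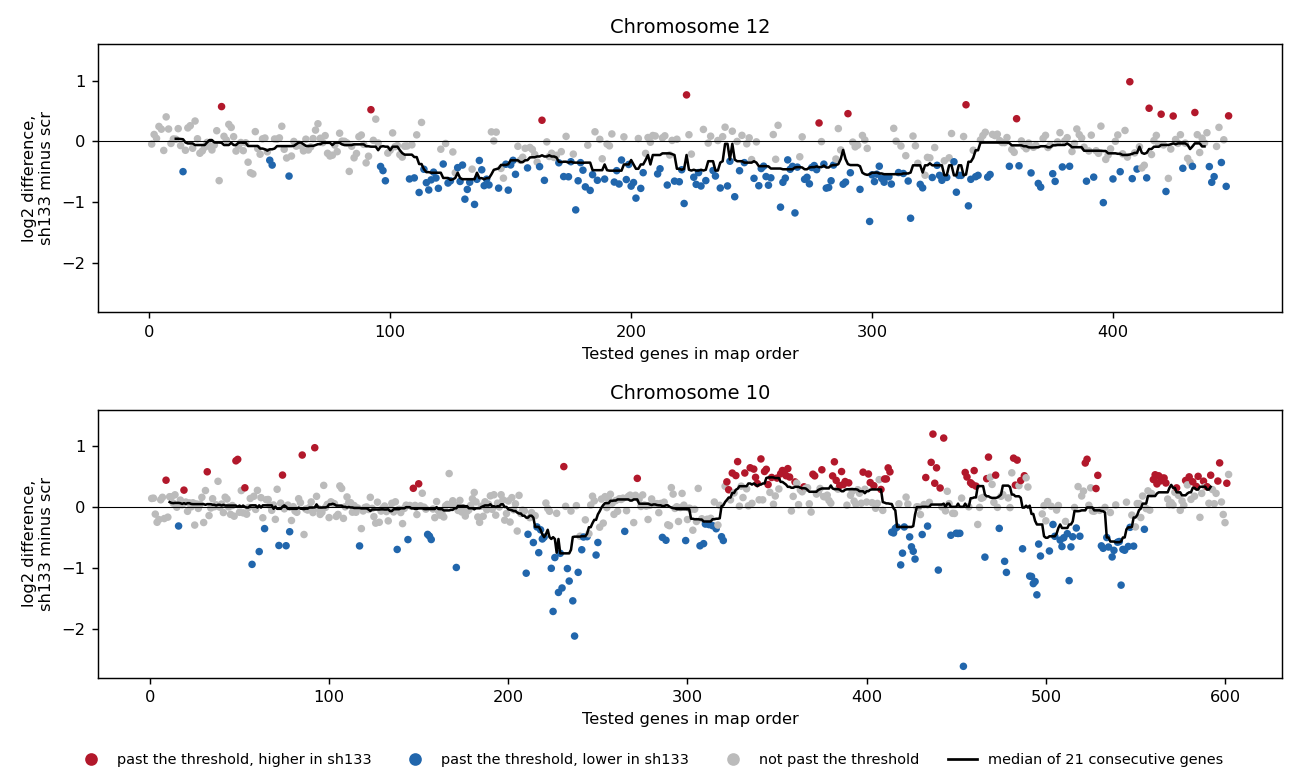
Log2 difference, sh133 minus scr (vertical axis), of each tested gene in map order (horizontal axis) on chromosome 12 (top) and chromosome 10 (bottom), coloured red where higher and blue where lower past the threshold, with the median of 21 consecutive genes as a line. On chromosome 12 the line lies below 0 through the middle blocks, whose medians run from -0.53 to -0.26, and on chromosome 10 it alternates between blocks.

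The second hairpin line offered values for the same genes, with the limits that it shares the scr arrays and that none of its arrays shares their title date. The mean log2 difference of Plcg1 was -0.12 in sh133 and -0.38 in sh14. For Plcg2 it was 0.96 in sh133 and 0.94 in sh14, for Ramp1 2.22 and 2.03, and for Tmcc3 -2.62 and -2.09. For Mmp2 it was 3.54 in sh133 and 1.04 in sh14, for S100a6 2.28 and 0.03, for Pf4 2.81 and 1.06, and for Cxcl3 3.33 and 0.36. Abcc3 differed by 1.63 in sh133 and by -0.46 in sh14, and Alas2 by 1.04 and -1.07. No test of these differences between the hairpin lines was made.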

How the data were processed

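Per the labels' protocols, RNA from I/11 cells was amplified, labelled with biotin and measured on Affymetrix mouse arrays, 1 for each of 3 lines at 4 times. The deposited values are log2 signals made with RMA by the authors, per the submitters' processing notes; the version and the genome build are not given in the sources used here. They ran from 0.04 to 13.1 over 45101 probe sets. As RMA equalises the arrays, total RNA per cell cannot be read from them. Precision is limited by the small number of arrays.

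By the platform annotation 34958 probe sets had 1 gene, 932 had several and 9211 had none; 34754 matched the RefSeq table of GRCm38.p6 by Entrez identifier, used for symbols, chromosomes and map order. The brightest probe set by mean over 12 arrays stood for each of 18194 genes, and 12673 at or above the 40th percentile (log2 1.45) were tested.

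The fit was limma 3.58.1 in R 4.3.3 (lmFit, eBayes) on the 4 sh133 and 4 scr arrays, with shRNA and time as terms and Benjamini-Hochberg adjustment over all tested genes. The equal time points pair the arrays: deviations from the line means correlated at 0.65, 0.39, 0.41 and 0.62 for the same time at 1, 6, 12 and 22 h. Errors are standard errors, since a deviation over 4 times includes time. Alternatives changed the date term, arrays, pairs, filter, probe set rule, scaling and variance prior. The pipeline was tested on simulated data.

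Named genes were 10 fixed ones, the 15 of largest change each way among called genes of 1 sign in all pairs without predicted genes, and up to 4 called members of each list, or the 2 of smallest p. Others carry a remark or stand only in counts of a list. The members, lists and rule were chosen with earlier results of these data known. Figures were drawn with Python 3.11.15.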

Additional observations from a re-analysis of the deposited data

Results flagged for a closer look

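Single arrays stood apart from the other 3 of their line for 17 of 256 sets of 4 values examined (128 named genes in each line), a gap above Dixon's 95% critical value as a share of the range; chance alone gives about 1 in 20. Of the 17, 9 were in sh133 and 8 in scr, and 14 were 1 h arrays, where a value includes the change with time. In sh133 at 1 h, Pf4 (5.08, nearest 7.35), Chchd10 (6.77, nearest 7.25), Fabp5 (9.52, nearest 9.85) and Pdk1 (6.21, nearest 6.50) were low. In sh133 at 1 h, Csn1s2a (4.60, nearest 1.96), Grb2 (7.35, nearest 7.07) and Herpud1 (6.74, nearest 5.70) were high. Nupr1 was high in sh133 at 22 h (5.83, nearest 4.62), and Cd3e, near background, was high in sh133 at 6 h (1.85, nearest 1.76). In scr at 1 h, Plcg2 (4.98, nearest 4.64), Mapt (5.25, nearest 3.54), Bbc3 (5.52, nearest 4.40), Herpud1 (6.05, nearest 4.92), Spred2 (6.34, nearest 4.44) and Pla2g6 (5.08, nearest 4.70) were high and Odc1 (9.41, nearest 10.11) was low. Nbeal2 was low in scr at 22 h (1.99, nearest 2.69). The causes were not tested.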

How the results depend on the processing

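The count of 1690 genes fell to 370 with the title date as a term, 622 with all 12 arrays and the date term, 254 from the same-date pairs alone and 587 without the replicate block, that is with arrays unpaired; of these, 360, 583, 249 and 587 were among the 1690 with the same direction. Fits that drop pairs or add terms leave fewer residual degrees of freedom, and the unpaired fit leaves more. With equally many arrays, the 1 and 22 h pairs alone gave 254 genes and the 6 and 12 h pairs alone gave 1972. In the 6 and 12 h pairs, line and title date cannot be told apart. Why the counts changed was not tested. Leaving out 1 pair at a time gave 760 to 2071 genes. The other alternatives gave 1207 to 1972 genes: 1592 with 12 arrays, 1972 from the different-date pairs, 1658 without a filter, 1749 at the 60th percentile, 1580 with the mean of probe sets, 1714 after a further quantile step, 1706 after centring and 1972 with an intensity trend. No scaling moved the share of higher calls by over 10 points. The term for pair type called 0 genes, and 0 to 24 when 1 pair was left out. Of 118 named genes past the threshold, 49 kept their call with the date term, 61 unpaired and 105 with 12 arrays, and none turned. Signs turned for 3 genes that never passed: Epor to 0.058 with the date term or the same-date pairs alone, Stat5b to 0.02 with the mean of probe sets, and Jak2 to -0.09 with the date term or the same-date pairs alone, -0.073 with 12 arrays and date, -0.004 with the mean of probe sets, and -0.033, -0.022 and -0.023 without the 6, 12 or 22 h pair, against 0.093 without the 1 h pair.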

Other observations

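Across genes, which are not independent replicates, the differences of sh133 minus scr correlated at 0.75 between 6 and 12 h, 0.69 between 12 and 22 h and 0.40 between 1 and 22 h, the last being the same-date pairs; each pair has its own 2 arrays. Of the tested genes, 1924 averaged near background in both lines, and 42 of the 1690 calls were among such genes, 32 higher and 10 lower.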
